A study of Mus musculus with 2 samples.

Results

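The granins and the enzymes that process prohormones were examined as a group of 10 genes chosen by name for their known roles, out of 43346 Ensembl genes in the deposited tables. The group holds the granins and granin-like proteins Chga, Chgb, Scg2, Scg3, Scg5 and Vgf, the convertases Pcsk1 and Pcsk2, the convertase inhibitor Pcsk1n and the carboxypeptidase Cpe. Polyadenylated RNA came from the adrenal gland of 1 adult female mouse of strain C57BL/6J, aged 10 weeks, and the labels name no mutation or treatment. It was sequenced as 2 libraries that the labels call technical replicates of 1 biological sample. Replicate 2 was made later than replicate 1, per the labels. There is 1 group and no control, so the comparison open to these data is replicate 2 against replicate 1, and no value speaks of differences between animals.

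Granins are acidic proteins stored with hormones in the dense-core granules of endocrine cells and neurons. In the adrenal medulla they fill the granules of chromaffin cells, which also hold catecholamines and neuropeptides. Convertases cut prohormones, granins among them, after pairs of basic residues inside the granule, and a carboxypeptidase then removes the basic residues left at the end of each fragment.

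The 2 libraries stood apart before any of these genes was considered. Replicate 2 held 17376660 counts and replicate 1 held 28267651, of which mitochondrial genes took 10.6% in replicate 2 and 40.1% in replicate 1. A level of at least 1 TPM (transcripts per 1000000, a measure per transcript length) was reached by 13486 genes in replicate 2 and 9202 in replicate 1. The ratio of replicate 2 to replicate 1 rose with the GC content of a gene's transcripts, with a Spearman correlation of 0.88 across 14274 genes that share the same libraries. Genes under 45% GC had a median log2 ratio of -1.59, and genes of 55% or more had 3.56. Library, date and GC content cannot be told apart as sources of a difference, so the members' ratios are also given after a smooth trend over GC content was removed.

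The coding sequences of these genes span a wide range of that property. The central 120 bases of the coding sequence of 5 members are shown because they run from the window richest in G and C to the poorest of the group. They come from GENCODE M21 transcripts on GRCm38 (mm10), in the sense of the gene, with every G and C in capitals.
Pcsk1n (gene at chrX:7919822-7924410, plus strand): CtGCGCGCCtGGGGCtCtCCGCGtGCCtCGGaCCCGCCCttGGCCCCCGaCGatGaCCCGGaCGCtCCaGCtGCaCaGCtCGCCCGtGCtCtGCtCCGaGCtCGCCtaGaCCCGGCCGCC
Vgf (gene at chr5:137026392-137033351, plus strand): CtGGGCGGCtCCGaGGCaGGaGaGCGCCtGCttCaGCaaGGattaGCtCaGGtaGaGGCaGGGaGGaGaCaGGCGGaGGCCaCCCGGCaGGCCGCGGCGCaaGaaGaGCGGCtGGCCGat
Chgb (gene at chr2:132781278-132795079, plus strand): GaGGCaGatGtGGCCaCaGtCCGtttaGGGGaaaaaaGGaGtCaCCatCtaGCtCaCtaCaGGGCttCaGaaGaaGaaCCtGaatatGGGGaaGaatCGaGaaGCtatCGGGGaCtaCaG
Scg2 (gene at chr1:79434669-79440120, minus strand): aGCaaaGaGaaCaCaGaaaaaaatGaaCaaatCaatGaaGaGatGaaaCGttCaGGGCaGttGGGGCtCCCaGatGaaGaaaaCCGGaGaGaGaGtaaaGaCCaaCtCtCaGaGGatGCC
Scg3 (gene at chr9:75643189-75684056, minus strand): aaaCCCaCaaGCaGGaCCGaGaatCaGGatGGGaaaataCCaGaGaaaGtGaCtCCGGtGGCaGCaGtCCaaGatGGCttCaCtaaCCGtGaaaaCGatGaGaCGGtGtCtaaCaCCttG
The Pcsk1n window is 75.8% G and C and the Vgf window 69.2%. The Chgb and Scg3 windows are 50% each and the Scg2 window 44.2%. Over the whole coding sequence the order runs from Pcsk1n at 71.9%, Vgf at 65.5% and Chga at 59.3% through Chgb at 53.1% and Scg2 at 49.2% to Scg3 at 44.8%. The other members lie at 53.9% for Cpe, 53.4% for Pcsk2, 51.5% for Scg5 and 45.8% for Pcsk1. The 3′ untranslated part is poorer than the coding part in all 10 leading transcripts, and the gap is widest in Pcsk1n, whose 1307 bases of 3′ untranslated sequence are 47.6% G and C.

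**Figure D1:**
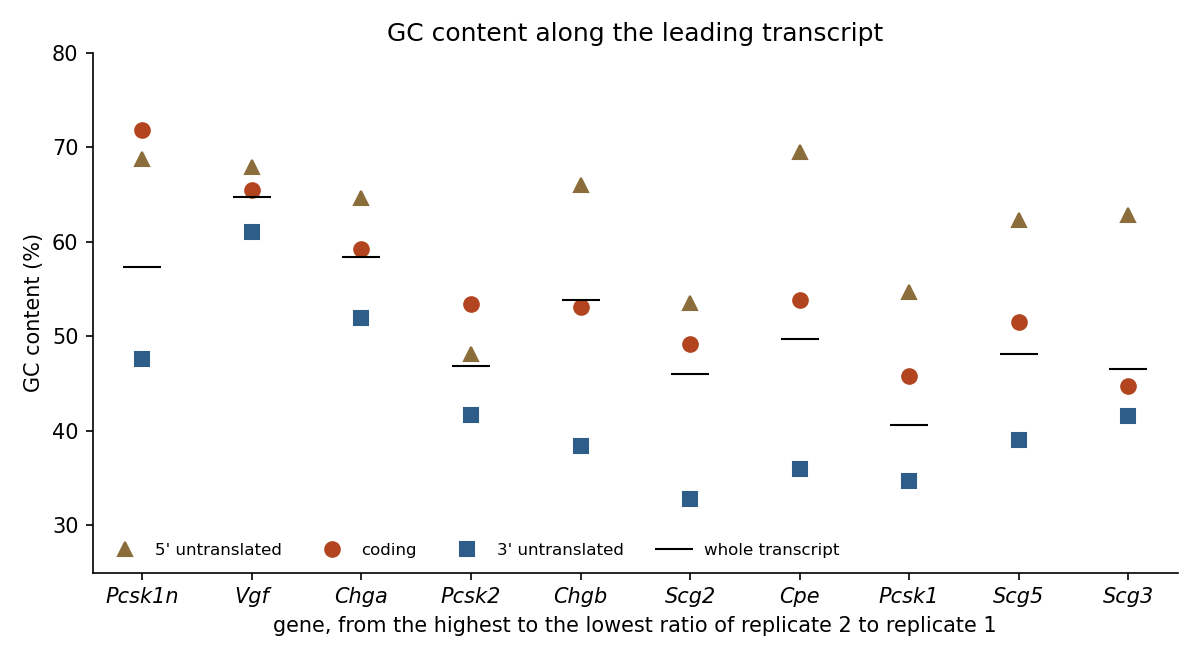
GC content in percent of the 5′ untranslated, coding and 3′ untranslated parts and of the whole leading transcript of each of the 10 genes, which run from the highest to the lowest ratio of replicate 2 to replicate 1. Pcsk1n has the richest coding part (71.9%), and Scg2 has the poorest 3′ untranslated part (32.8%).

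The major granins were among the most abundant nuclear messages of the gland. Chgb, or secretogranin 1, an acidic matrix protein of the granule, had 1854 TPM in replicate 2 and 303 TPM in replicate 1 (mean 1079 ± 1097 SD, n = 2). That was rank 19 in replicate 2 and rank 53 in replicate 1 among nuclear genes. Chga, the founding granin and the precursor of vasostatin and catestatin, had 1700.0 TPM in replicate 2 and 26.0 TPM in replicate 1 (863 ± 1184). Its rank was 24 in replicate 2 against 1426 in replicate 1, so its place in the order of genes depends on the library read. Scg2, the precursor of the peptide secretoneurin, had 993 TPM in replicate 2 and 396 TPM in replicate 1 (694 ± 422), with rank 48 in replicate 2 and 34 in replicate 1.

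The minor granin-like proteins lay far below these 3 in replicate 2, and below Chgb and Scg2 in replicate 1, where Chga stood close to Scg5. Scg5, also called 7B2, a chaperone that Pcsk2 needs to mature, had 29.9 TPM in replicate 2 and 15.9 TPM in replicate 1 (22.9 ± 9.89). Scg3, which binds Chga and cholesterol-rich granule membrane, had 18.7 TPM in replicate 2 and 11.3 TPM in replicate 1 (15.0 ± 5.23). Vgf, a neurotrophin-inducible precursor of several peptides, had 5.87 TPM in replicate 2 and 0.04 TPM in replicate 1 (2.96 ± 4.12). The value for Vgf rests on 176 counts in replicate 2 and on 3 counts in replicate 1 (exact 95% Poisson interval 0.619 to 8.77, counting error only), so its level in replicate 1 is near the limit of detection.

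Of the processing enzymes, the carboxypeptidase was the one expressed on the scale of the major granins. Cpe, which trims basic residues from the ends of cut peptides, had 546 TPM in replicate 2 and 256 TPM in replicate 1 (401 ± 205). Pcsk1, the convertase PC1/3, had 27.3 TPM in replicate 2 and 13.8 TPM in replicate 1 (20.5 ± 9.57). Pcsk2, the convertase PC2, had 2.47 TPM in replicate 2 and 0.37 TPM in replicate 1 (1.42 ± 1.49), from 140 counts in replicate 2 and 56 in replicate 1. PC2 message was therefore the scarcest of the group in replicate 2. Pcsk1n, or proSAAS, whose C-terminal part inhibits Pcsk1, had 17.0 TPM from 425 counts in replicate 2 and was at 0 counts in replicate 1. The exact 95% Poisson interval of a count of 0 ends at 3.69 counts. The deposited 95% interval for the level of Pcsk1n in replicate 1 ends at 0.0440 TPM.

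**Figure D2:**
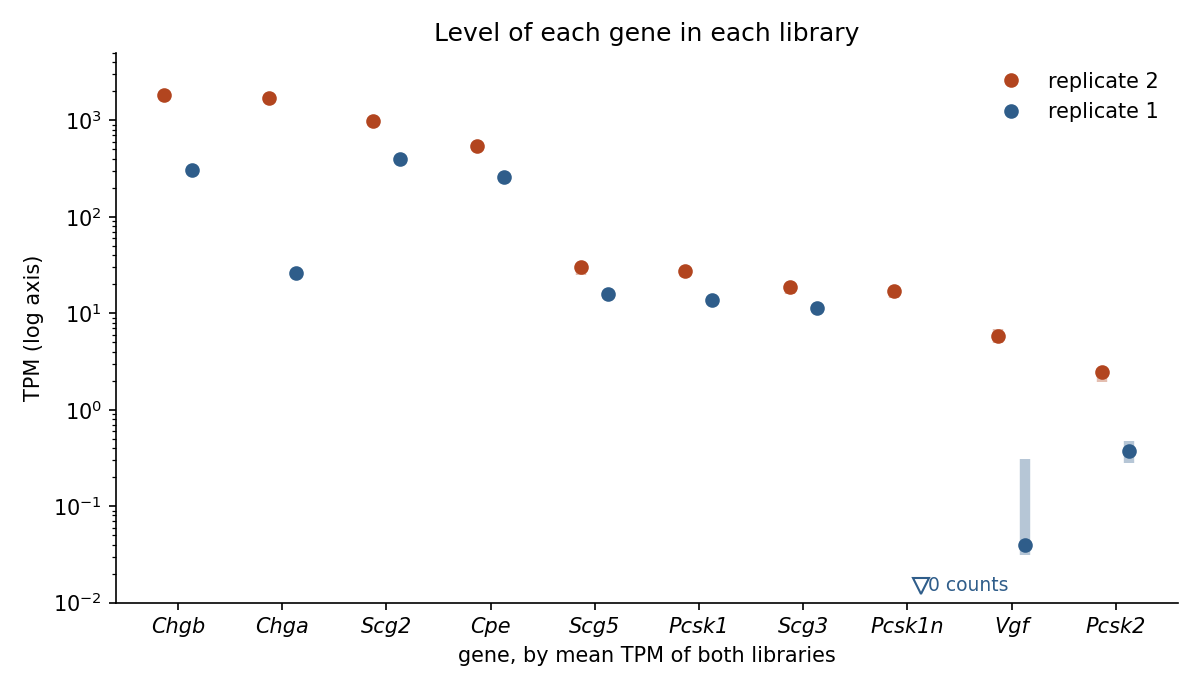
Level of each of the 10 genes in TPM on a log axis, with points for replicate 2 and replicate 1 and bars for the deposited interval of the posterior mean TPM. Chgb, Chga, Scg2 and Cpe form the upper group in replicate 2, Chga is lower by a factor of 65.3 in replicate 1, and Pcsk1n is at 0 counts in replicate 1.

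The order of the members was much alike in both libraries, with a Spearman correlation of TPM of 0.89 over the 10 genes, given as a description. In replicate 2 the order was Chgb, Chga, Scg2, Cpe, Scg5, Pcsk1, Scg3, Pcsk1n, Vgf and Pcsk2. In replicate 1 it was Scg2, Chgb, Cpe, Chga, Scg5, Pcsk1, Scg3, Pcsk2, Vgf and Pcsk1n. Scg5, Pcsk1 and Scg3 kept places 5, 6 and 7 in both. The deposited intervals, which cover the estimation within 1 library, overlapped between Scg5 and Pcsk1 in both libraries, between Scg3 and Pcsk1n in replicate 2, and between Pcsk2 and Vgf and between Vgf and Pcsk1n in replicate 1. Other neighbours in the order did not overlap, although the spread between the libraries was far wider than these intervals for Chga and Chgb.

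Together the 10 genes held 5194 TPM in replicate 2 and 1023 TPM in replicate 1. Chga, Chgb and Scg2 made up 87.6% of that sum in replicate 2 and 70.9% in replicate 1, and with Cpe 98.1% in replicate 2 and 96.0% in replicate 1. The members took 0.790% of all counts in replicate 2 (exact 95% interval from 0.786% to 0.794%), against 0.262% in replicate 1 (from 0.260% to 0.264%). Of counts in nuclear genes alone they took 0.885% in replicate 2 and 0.438% in replicate 1. All 10 genes reached 1 TPM in replicate 2 and 7 did in replicate 1, where Vgf, Pcsk2 and Pcsk1n did not. Both libraries come from 1 biological sample, so these are differences between libraries, and what lies behind them was not tested. A level in a whole gland also does not separate the number of cells of a type from the RNA per cell.

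The libraries were then compared gene by gene with an exact binomial test on counts scaled by TMM (trimmed mean of M values), with Benjamini-Hochberg adjustment over the 14358 genes whose counts summed to 20 or more. A gene was called at an adjusted p under 0.05 and a fold of at least 2. The test compares these libraries and covers counting error only. Of the 10 members, 3 were called higher in replicate 2 and 1 lower, while 6 were not called. Among all genes tested, 36.4% were called higher and 27.8% lower, so a call is common in this comparison. The members' median log2 ratio was 0.13, against 0.10 for all genes tested, whose quartiles were -1.12 and 2.10.

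The 3 higher calls were Chga, Vgf and Pcsk1n. Chga had 35900 counts in replicate 2 and 1465 in replicate 1, which after scaling was 18.1-fold higher in replicate 2 (95% interval 17.2 to 19.1). Vgf was 43.4-fold higher in replicate 2, with an interval of 14.6 to 213 that reflects its 3 counts in replicate 1 (exact binomial test, adjusted p = 1.57e-37). Pcsk1n was 105-fold higher in replicate 2 with replicate 1 set to a floor of 3 counts (exact binomial test, adjusted p = 4.48e-102). That is no lower bound, as the exact 95% interval of its fold began at 85.0. These 3 genes have the GC-richest coding sequences of the group.

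Scg3 was the member called lower, with 480 counts in replicate 2 and 772 in replicate 1, or 0.460 of the replicate 1 level (exact binomial test, adjusted p = 1.80e-41), although its log2 ratio was 0.02 when counts were scaled by library totals. The other log2 ratios were 0.88 for Pcsk2 and 0.77 for Chgb, and -0.50 for Scg2, -0.76 for Cpe, -0.85 for Pcsk1 and -0.94 for Scg5. The negative ratios depended on the scaling, since scaling by totals moved the median of all genes by 1.14 on the log2 scale and made all 5 negative ratios positive. Every member's TPM over all genes was higher in replicate 2, where mitochondrial genes took a smaller share. With TPM taken over nuclear genes alone, Scg3 was slightly lower in replicate 2, at 23.84 against 24.89 in replicate 1. Every other member stayed higher in replicate 2 on that measure, some by little. Pcsk1 had 34.82 in replicate 2 and 30.34 in replicate 1, and Cpe 696.3 and 565.7. Scaled counts and TPM over all genes thus give opposite directions for Scg2, Scg3, Scg5, Pcsk1 and Cpe. Over nuclear genes alone this no longer held for Scg3.

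The members' ratios followed GC content, as did those of the transcriptome. Over the 10 genes the Spearman correlation of the log2 ratio was 0.61 with transcript GC content and 0.88 with coding GC content. Across all tested genes it was 0.88 and, over the 13538 with a coding sequence, 0.74. At the rich end the members and the transcriptome parted. The fitted trend over coding GC content fell from 2.77 at Chga to 2.16 at Vgf and 0.83 at Pcsk1n, while these members' own ratios rose. All these points share the same pair of libraries and are given as a description. Genes within 1 percentage point of Chga's GC content had a median log2 ratio of 3.68 (1099 genes), beside 4.18 for Chga itself. Those near Vgf had 5.68 (37 genes), beside 5.22 for Vgf. Those near Chgb had 1.87, beside 0.77 for Chgb, and those near Pcsk2 had -1.20, beside 0.88 for Pcsk2. Chga and Vgf thus lay close to other genes of their composition, Chgb below them and Pcsk2 above.

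**Figure D3:**
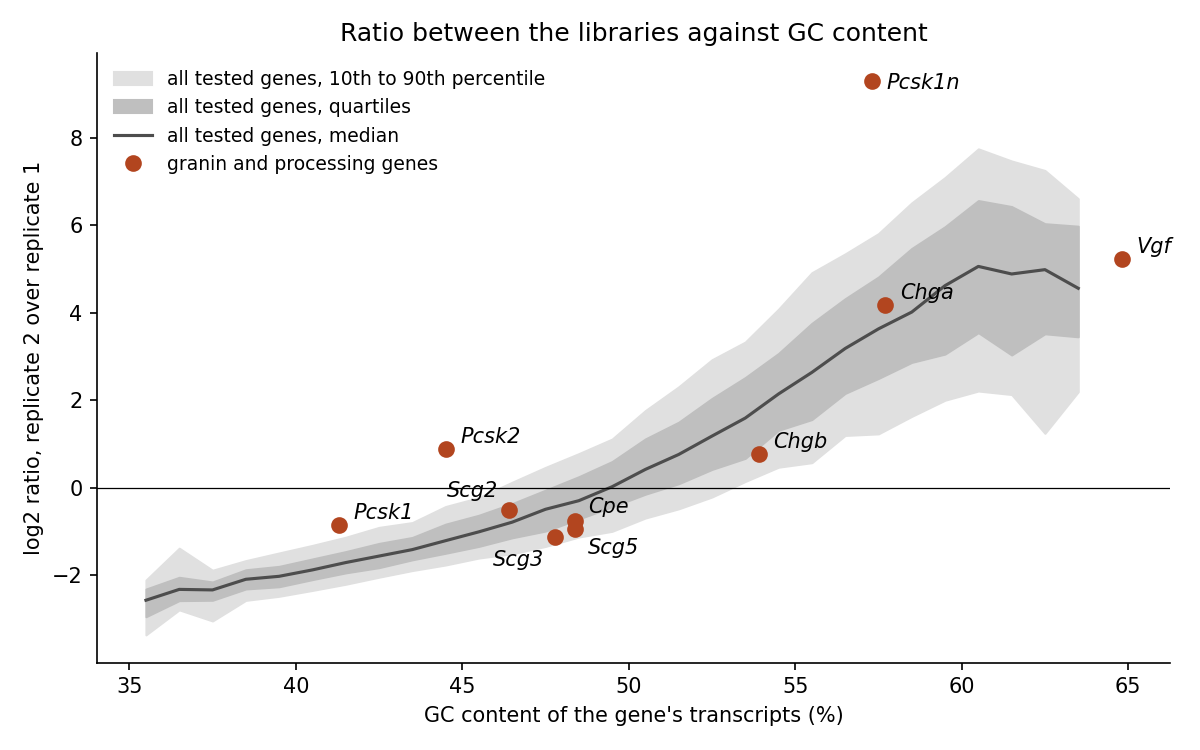
Log2 ratio of replicate 2 to replicate 1 against the GC content of a gene's transcripts in percent, with bands for the quartiles and the 10th to 90th percentiles and a line for the median of all tested genes in bins of 1 percentage point that hold at least 20 genes, and points for the 10 members. Chga (4.18) and Vgf (5.22) lie near the line or its continuation, Chgb (0.77) below it, and Pcsk2 (0.88) and Pcsk1n above it.

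With the trend over transcript GC content removed, the picture within the group changed. Chga had a log2 ratio of 0.52 and Vgf of -1.06, and neither was called. For Vgf the fitted trend stood at 6.28, above the median of 5.68 of the 37 genes near its GC content. Its -1.06 thus depends on a fit where genes are few, and on 3 counts in replicate 1. Scg3, the lower call on scaled counts, stood at -0.69 and was no longer called. Chgb was called lower in replicate 2 at -1.07, and Pcsk2 was called higher at 2.04. The other ratios were 0.85 for Pcsk1, 0.26 for Scg2, -0.50 for Cpe and -0.69 for Scg5, so those of Pcsk1 and Scg2 changed sign. Pcsk1n was again called higher, and stood at 3.24 on the log2 scale with replicate 1 set to the floor of 3 counts. The members then held 2 higher and 1 lower call, against 13.5% and 12.4% of all genes tested. With GC content weighted by the share of each transcript, the same 3 members were called, against 11.4% higher and 11.1% lower among all genes.

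The calls also depended on which part of the transcript the GC content was taken from. With the trend over coding GC content removed, a setting added after the data were seen, Chga (1.42), Vgf (3.06) and Pcsk1n (5.89 at the floor) were called higher. Scg5 (-1.12) and Cpe (-1.82) were called lower, while Chgb stood at 0.01, Pcsk2 at 0.02, Scg3 at 0.21, Pcsk1 at 0.31 and Scg2 at -0.08. Among all genes 21.3% were called higher and 19.6% lower under that setting. Pcsk1n was the member called in the same direction under all 12 alternative settings. Chga was called higher under 9 of the 12, and Vgf under 9 of the 12. Neither was called with the GC, the share-weighted GC or both GC and length trends removed. Other settings, such as a different count filter or fold minimum, hardly move a ratio, so these counts do not measure how firm a call is.

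**Figure D4:**
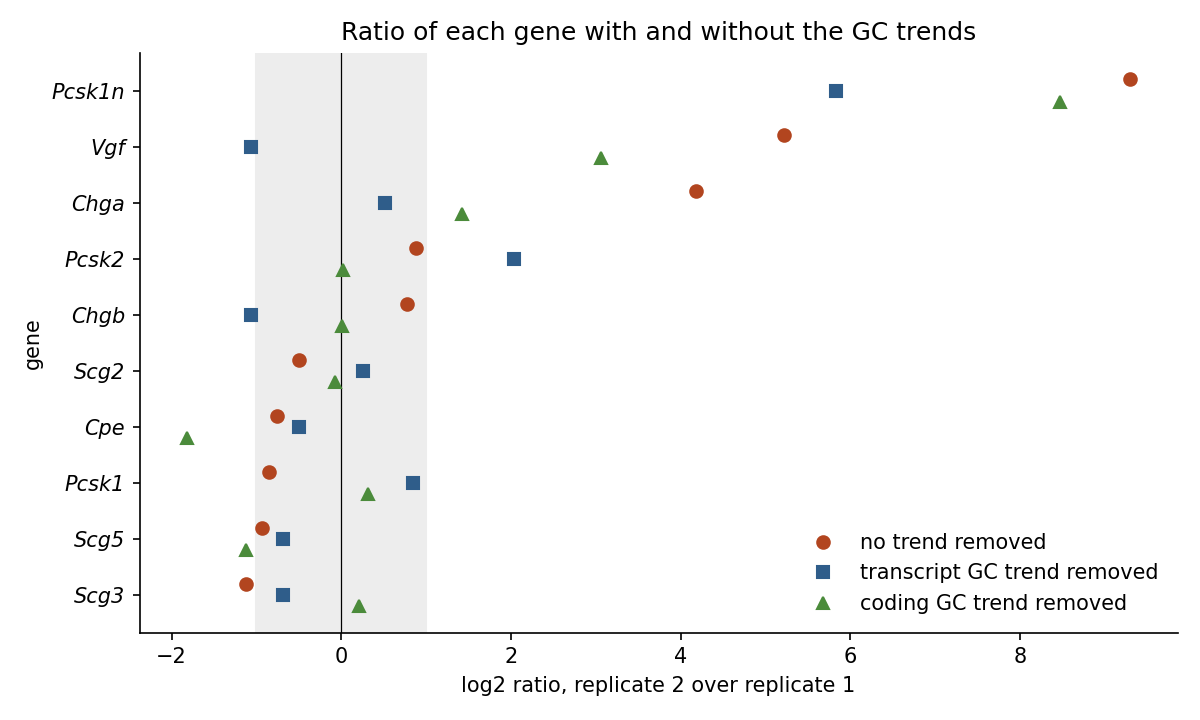
Log2 ratio of replicate 2 to replicate 1 of each of the 10 genes after TMM scaling, after removal of the trend over transcript GC content and after removal of the trend over coding GC content. Chga moves from 4.18 to 0.52 and 1.42 and Vgf from 5.22 to -1.06 and 3.06 across these settings, while Pcsk1n stays to the right of the other genes.

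Pcsk1n was set beside genes of its own composition. Within 1 percentage point of its transcript GC content of 57.3% there were 1168 tested genes with a median log2 ratio of 3.49. Of these, 56 were at 0 counts in replicate 1. With every count under the floor set to 3, Pcsk1n had a log2 ratio of 6.71, and 18 of the other genes, or 1.54%, had one at least as high. Within 1 point of its coding GC content there were 35 tested genes, with a median of 0.27 and 3 at 0 counts in replicate 1. No transcript of another gene matched Pcsk1n, or any other member, with 95% identity or more across 50% or more of its length.

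The balance between members was compared within each library. The GC trend is known only as a ratio between the libraries. For values without the trend it was split evenly between them, a choice the data cannot check. Those values are therefore no corrected levels. The ratio of Chga to Chgb in TPM was 0.917 in replicate 2 and 0.0858 in replicate 1, and 0.486 in replicate 2 and 0.162 in replicate 1 once the trend over GC content was taken out. The ratio of Scg2 to Chgb was 0.535 in replicate 2 and 1.30 in replicate 1, so the libraries differed on which granin was the more abundant. With the GC trend split in this way these became 1.31 in replicate 2 and 0.531 in replicate 1, so the order within a library depends on that choice. Pcsk1 exceeded Pcsk2 by a factor of 11 in replicate 2 and 37.2 in replicate 1, and without the trend by 13.4 in replicate 2 and 30.7 in replicate 1. The chaperone Scg5 exceeded its client Pcsk2 by 12.1-fold in replicate 2 and 42.9-fold in replicate 1, and without the trend by 8.82-fold in replicate 2 and 58.8-fold in replicate 1. The ratio of Scg3 to its partner Chga was 0.0110 in replicate 2 and 0.433 in replicate 1, and without the trend 0.0454 in replicate 2 and 0.105 in replicate 1. Pcsk2 stood at 0.00453 of Cpe in replicate 2 and 0.00144 in replicate 1, and without the trend at 0.00619 in replicate 2 and 0.00106 in replicate 1. In replicate 2, Pcsk1n stood at 0.623 of Pcsk1 (0.104 without the trend) and Vgf at 0.00591 of Scg2 (5.15e-04 without the trend), and replicate 1 held too few counts of either for a ratio.

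At the level of transcripts, 17 were listed for the 10 genes, and 5 genes had 1 each. Scg2 was the member with a sizeable share in more than 1 transcript in both libraries. Its transcript of 3 exons (ENSMUST00000185234.1) held 709 TPM and 71.5% of the gene in replicate 2, and 349 TPM and 88.2% in replicate 1. Its transcript of 2 exons (ENSMUST00000049972.5) held 283 TPM and 28.5% in replicate 2, and 46.7 TPM and 11.8% in replicate 1. The leading transcript thus lacks part of the coding sequence, since the 2-exon transcript has a coding sequence of 1854 bases and the 3-exon one 1734. The 120 bases that differ lie at chr1:79435932-79436051 on the minus strand, inside the last exon of the 2-exon transcript, and are shown here in the sense of the gene, with G and C in capitals as above.
Scg2 stretch: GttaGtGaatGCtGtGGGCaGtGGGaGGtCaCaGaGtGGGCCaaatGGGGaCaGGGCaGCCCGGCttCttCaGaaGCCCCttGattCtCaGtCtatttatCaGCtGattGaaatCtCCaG
The stretch begins with GT and ends with AG, the bases found at the ends of most introns, and is 52.5% G and C, against 46.0% for the leading transcript as a whole. The 2-exon transcript also starts 78 bases further upstream, so reads at the 5′ end can separate these transcripts as well. The deposited 95% intervals of the transcripts' levels did not overlap in either library. Which reads set the shares cannot be read from these tables.

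**Figure D5:**
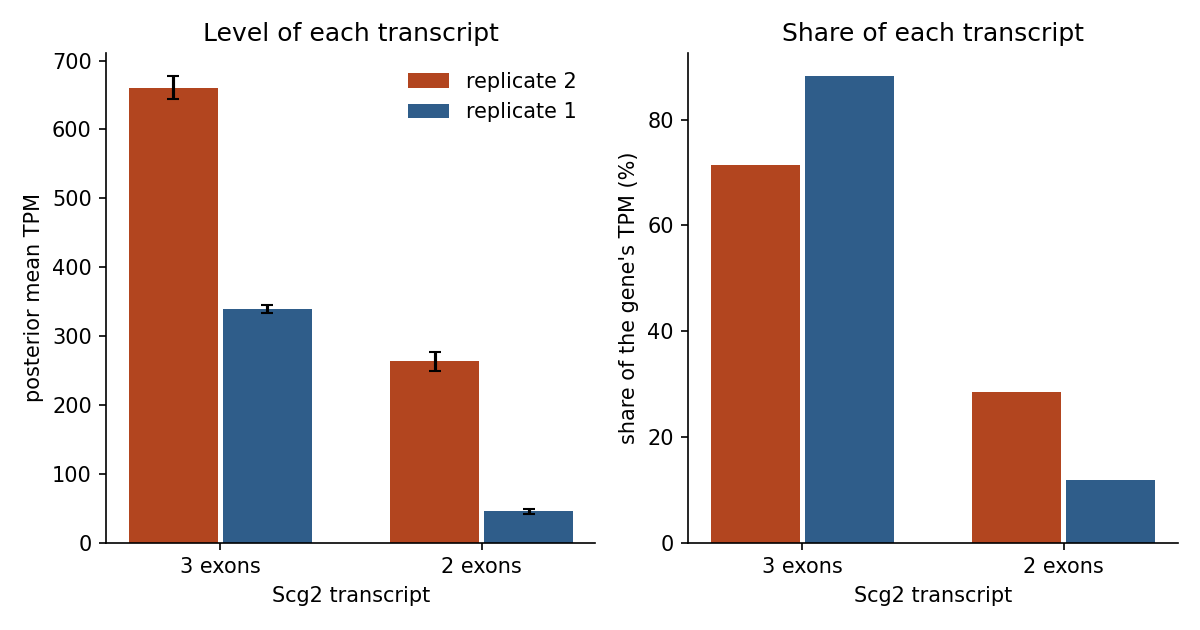
Posterior mean TPM with the deposited interval, and share of the gene's TPM in percent, of the 2 Scg2 transcripts in replicate 2 and replicate 1. The 3-exon transcript holds the larger share in both, 71.5% in replicate 2 and 88.2% in replicate 1.

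Vgf had a second transcript (ENSMUST00000190827.2) at 13.8% of the gene in replicate 2 and at 0 in replicate 1, where the gene had 3 counts in all. For Pcsk2, some reads may belong to Pcsk2os1, an antisense gene that overlaps it and had 17 counts in replicate 2 and 39 in replicate 1. The sources used here do not say whether counting used the strand, and the level of Pcsk2 is uncertain to that extent. The deposited Pcsk1 transcript is 2677 bases long, against 5040 in GENCODE M21, so its GC content was taken over 3′ sequence that the authors' counts did not cover.

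Promoter sequences were available from RefSeq (GRCm38.p6) for 8 of the members, of which the 250 bases before the gene start were searched. The names of Vgf and Cpe were not matched. The cAMP response element TGACGTCA, which reads the same on both strands and is bound by CREB-family factors, was found in Scg2, Chgb and Pcsk1. It occurred in 1.62% of 27025 such stretches. The 3 elements are shown in the sense of the gene with the motif in capitals, because they lie at nearly the same distance from the RefSeq start.
Scg2 (chr1:79440076-79440105, minus strand): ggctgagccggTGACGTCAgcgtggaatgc
Chgb (chr2:132781559-132781588, plus strand): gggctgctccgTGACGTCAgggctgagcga
Pcsk1 (chr13:75089768-75089797, plus strand): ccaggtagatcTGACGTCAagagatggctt
The first base of the motif is at -68 in Scg2, -72 in Chgb and -78 in Pcsk1 from that start. GENCODE M21 places the start of Chgb and of the 2-exon Scg2 transcript further upstream, so in that annotation these elements lie inside a first exon, while the Pcsk1 element lies in no exon of the gene. The shorter core TGACG on either strand, which the full element contains, was found in 7 of the 8 promoters and in 17.9% of all, and Pcsk1n was the member without it. The letters TATAAA on the strand of the gene were found in 0 of the 8 and in 8.12% of all promoters. These are matches of letters and say nothing of binding in this tissue.

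Other proprotein convertases were led by types that are expressed in most tissues. Pcsk5 had 83.3 TPM in replicate 2 and 18.5 TPM in replicate 1. Furin, which cuts precursors in the constitutive pathway, had 74.8 TPM in replicate 2 and 0.60 TPM in replicate 1. Mbtps1, the site-1 protease, had 55.6 TPM in replicate 2 and 6.52 TPM in replicate 1. Of 7 genes, 5 were tested and 4 were called higher and 0 lower, and without the GC trend 2 higher and 0 lower. For this and the later lists, the shares among all genes tested were 36.4% higher and 27.8% lower. Without the GC trend they were 13.5% and 12.4%. Furin was 28.3-fold higher in replicate 2 on scaled counts and was called higher also without the GC trend, where the log2 ratio was 1.16. All 3 exceeded Pcsk1 in TPM in replicate 2, while in replicate 1 Furin and Mbtps1 were below it.

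Among other carboxypeptidases and peptide-modifying enzymes, Pam, which amidates peptide ends, had 190 TPM in replicate 2 and 95.2 TPM in replicate 1. Ctsl, cathepsin L, had 175 TPM in replicate 2 and 34.6 TPM in replicate 1. Cpd, a carboxypeptidase of the trans-Golgi network, had 24.5 TPM in replicate 2 and 15.8 TPM in replicate 1 and was called lower in replicate 2 on scaled counts, with a log2 ratio of -1.24. Without the GC trend its log2 ratio was -0.31 and it was not called. Cpn1, the plasma enzyme made in liver, was at 0 in both libraries. Of 10 genes, 9 were tested, and 4 were called higher and 1 lower, and without the GC trend 2 higher and 0 lower.

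Genes of granule biogenesis and membrane were led by Vps41, a subunit of the HOPS tethering complex, with 49.7 TPM in replicate 2 and 30.4 TPM in replicate 1. Arfip1 had 34.0 TPM in replicate 2 and 29.4 TPM in replicate 1. Rab3a, a GTPase of regulated exocytosis, had 47.3 TPM in replicate 2 and 2.15 TPM in replicate 1. Of 16 genes, 15 were tested, and 7 were called higher, Rab3a among them, and 4 lower, among them Vps41 and Arfip1. Without the GC trend, 2 were called higher and 0 lower. Slc30a3, a zinc transporter of synaptic vesicles, was at 0 in both.

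Of the peptide precursors, 16 in all, 7 were tested. Gnas, whose locus encodes the stimulatory G protein and the granin-like NESP55, had 1428 TPM in replicate 2 and 295 TPM in replicate 1. These levels are of the whole gene, and the part of NESP55 in them was not separated. Npy, a neuropeptide of chromaffin cells, had 808 TPM in replicate 2 and 142 TPM in replicate 1. Gal, the galanin precursor, had 61.9 TPM in replicate 2 and 2.36 TPM in replicate 1 and was called 7.20-fold higher. Sst was at 0 in both. Of the tested precursors 4 were called higher and 1 lower, and without the GC trend 0 were called higher and 2 lower. Over the 4 lists, with 5, 9, 15 and 7 genes tested, 19 genes were called higher and 6 lower, beside 36.4% and 27.8% of all genes tested. Without the GC trend 6 were called higher and 2 lower, beside 13.5% and 12.4%.

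Markers of the cells that carry these messages varied with the libraries as well. The 14 chromaffin markers summed to 1233 TPM in replicate 2 and 91.4 TPM in replicate 1, and 12 of them reached 1 TPM in both. On scaled counts their median log2 ratio was 0.10, with 6 called higher and 3 lower, against 36.4% and 27.8% of all genes tested. Without the GC trend the median was -0.24, with 3 called higher and 5 lower, against 13.5% and 12.4%. The summed TPM thus does not stand for the set. Pnmt, the enzyme that makes adrenaline, had 357 TPM from 4291 counts in replicate 2 and was at 0 counts in replicate 1. The 3 chromaffin markers called lower on scaled counts were Snap25, Slc18a2 and Syt1. The 7 markers of the steroid-making cortex, all above 1 TPM in both libraries, summed to 35688 TPM in replicate 2 and 7305 TPM in replicate 1. The 6 neuron markers summed to 100.3 TPM in replicate 2 and 24.1 TPM in replicate 1, and 4 reached 1 TPM in both. Snap25 is in both the neuron and the chromaffin list, so their sums are not independent. Its level was 24.1 TPM in replicate 2 and 18.5 TPM in replicate 1, most of the neuron sum in replicate 1. The 6 sustentacular and Schwann cell markers summed to 14.8 TPM in replicate 2 and 3.31 TPM in replicate 1, and 1 reached 1 TPM in both. On scaled counts the median log2 ratio was 0.11 for cortex, -0.45 for neuron and 1.26 for sustentacular and Schwann cell markers. Without the GC trend these medians were 0.18 for cortex, -0.17 for neuron and 0.16 for sustentacular and Schwann cell markers. The 6 pituitary markers summed to 0.39 TPM in replicate 2 and 0 in replicate 1, with Gh, Prl, Cga, Lhb and Tshb at 0 in both. The 6 islet markers summed to 0.12 TPM in replicate 2 and 0.11 TPM in replicate 1, with Ins1, Gcg, Sst and Ppy at 0 in both. The part of chromaffin or nerve cells in the levels of the 10 genes was not tested.

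The tested genes nearest to Chgb in level over both libraries, by distance in log2(TPM + 1), were Sparc (0.181), Ppia (0.360) and Gnas (0.379). Those nearest to Chga were Gapdh (0.429), Scarb1 (0.559) and Hba-a2 (0.613). Gapdh, a glycolytic enzyme found in every cell, had 1527 TPM in replicate 2 and 19.5 TPM in replicate 1. These genes were picked for levels like those of Chga in both libraries, so a like gap between the libraries was fixed by the choice. The many pseudogenes of Gapdh can also share reads with it.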

How the data were processed

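Per the labels' protocols, a lipid tissue kit was used to extract the RNA. Reads were placed on mm10 and quantified against annotation M4, per the notes deposited with the files (program, version and strand setting: not given in the sources used here). The deposited gene and transcript tables give expected counts, TPM and FPKM per library, not pooled. They also give, as deposited, the posterior mean TPM with its interval and the effective length (used here as scores), and the percent share of each transcript in its gene. The deposited FPKM values served only as an alternative measure of level.

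Expected counts were rounded. Rows that are not Ensembl genes held 0 counts. Libraries were scaled with TMM in edgeR 4.0.16 and tested with scipy 1.17.1, by a two-sided exact binomial test on genes whose counts summed to 20 or more. Since each library is alone, no residual spread exists and p-values cover counting error between libraries. Log2 ratios are replicate 2 over replicate 1 with a prior count of 0.5. GC trends were removed with lowess (span 0.3, statsmodels 0.14.6), with GC content and coordinates from GENCODE M21. DESeq2 1.42.0 size factors, total counts, other filters, length and coding GC were alternatives. The test was tested on simulated data.

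The members, lists and tests were chosen with earlier results of these data known. Named genes are all members and, of each list, the 3 highest and the lowest by mean TPM; 1 of these and 1 sequence are not reported here. Poisson and binomial intervals cover counting error only, as reads carry no molecular identifiers.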

Additional observations from a re-analysis of the deposited data

How the results depend on the processing

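No paired analysis was possible because the libraries form 1 group. Members called higher in replicate 2 numbered 3, and 5 with scaling by total counts or with no fold minimum. Members called lower numbered 1, but 2 with DESeq2 size factors, with GC and length trends removed, or with the coding GC trend removed. The lower count was 5 with the length trend removed or with no fold minimum, and 0 with total counts or a fold of at least 4. Of all 14358 genes tested, total counts gave 7769 higher and 567 lower calls, and no fold minimum gave 6590 and 6002. A fold of at least 4 gave 3725 and 824, the length trend removed 4460 and 4847, and DESeq2 size factors 5118 and 4173. With GC and length trends removed, 1705 of 14274 were called higher and 1822 lower. Pathway genes called higher numbered 19, but 6 with the GC trend or both GC and length trends removed, 3 with the share-weighted GC trend, 10 with the coding GC trend and 12 at a fold of at least 4. Those called lower numbered 6, but 2 with the GC trend, the share-weighted GC trend or both GC and length trends removed, 0 with total counts or a fold of at least 4, and 10 with no fold minimum.

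The log2 ratio of Chgb turned to -1.07, -1.14 and -1.05 with the GC, the share-weighted GC and both GC and length trends removed, and that of Vgf to -1.06, -1.28 and -1.06. Under the same 3 settings that of Pcsk1 turned to 0.85, 0.93 and 0.87 and that of Scg2 to 0.26, 0.30 and 0.24. With total counts the ratios of Scg3, Pcsk1, Scg5, Cpe and Scg2 turned to 0.02, 0.28, 0.19, 0.38 and 0.64, and with the coding GC trend removed those of Scg3 and Pcsk1 to 0.21 and 0.31. The cause was not tested. Of the members' log2 ratios under the alternatives, 74 kept their direction and side of the threshold, 20 newly passed, 7 no longer passed and these 19 changed sign. Leaving out a library, the members at 1 TPM or more numbered 7 to 10. The 3 counts of Vgf and 0 of Pcsk1n in replicate 1 limit the precision of their ratios. Replicate 1 held more counts in all, but 40.1% of them were in mitochondrial genes, and its library size after TMM scaling was the smaller.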
